A study of Mus musculus with 4 samples.

Results

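The cytosolic ribosomal protein genes encode the proteins of the large (Rpl) and small (Rps) ribosomal subunits. They were taken as the protein-coding mouse symbols that start with Rpl or Rps and a digit, plus Rpsa, Rplp0, Rplp1 and Rplp2, without the Rps6k kinases, pseudogenes and names ending in l. This gave 83 genes of the 24148 genes in the count table, 77 of them core ribosomal protein genes. The other 6 were the Rps19-binding protein gene Rps19bp1, the paralogs Rpl7l1 and Rpl22l1, and the retrogenes Rps23rg1, Rps27rt and Rpl37rt. Expression was measured by RNA sequencing of ribosomal-RNA-depleted RNA from cultured primary mouse microglia, the macrophages that live in brain tissue. They were obtained by shaking mixed glial flasks and seeding the cells that came off. The groups were microglia given lipopolysaccharide (LPS), a molecule of the bacterial outer membrane that activates macrophages, at 10 ng/ml for 4 h (2 libraries), and untreated control microglia (2 libraries). The labels give no strain, age or sort. Nothing in them tells if the replicates of a group are separate cultures or animals, and each p-value below therefore reflects the scatter of these libraries alone, which may be technical.

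Each ribosome holds 1 copy of nearly every ribosomal protein, and cells make these proteins in matched amounts. In mammals this is achieved largely at translation: ribosomal protein mRNAs begin with a terminal oligopyrimidine (TOP) tract, through which the kinase complex mTORC1 and the RNA-binding protein Larp1 set how well they are translated. Their mRNAs are abundant and stable, and several of them have served as reference genes in expression studies of macrophages.

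The deposited tables held 5095630 and 4592474 counts in LPS replicates 1 and 2, and 3617176 and 4080568 counts in control replicates 1 and 2. The unit of level is CPM, counts brought to a common library total after TMM normalization, which finds 1 factor per library from the bulk of the genes. As a check of the cells, summed microglia markers (10 genes) reached 1496 and 1173 CPM in LPS and 2244 and 1601 CPM in control, with Itgam and Trem2 at 0 in at least 1 library. Astrocyte markers (8 genes, Slc1a2 at 0 in at least 1 library) summed to 127 and 439 CPM in LPS and 111 and 308 CPM in control. Oligodendrocyte markers (8 genes, 6 of them with counts in every library, Pdgfra at 0 in at least 1) summed to 203 and 54.2 CPM in LPS and 218 and 62.3 CPM in control. Summed fibroblast, neuron and endothelial markers reached at most 64.3 CPM in any library. The LPS-induced genes Cxcl10, Rsad2, Il6 and Il1b, a check of the treatment labels, were called higher in 4 of 4 cases.

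Of the 83 genes, 69 reached a mean count of 10 over the 4 libraries and were tested. The lowest count of any of these 69 in any library was 47, so none was tested through 1 group alone. The 14 genes that were not tested included core proteins. Rpl19, Rpl22, Rpl30, Rpl31, Rpl34, Rpl35a, Rpl38, Rps24, Rps27, Rps27a and the retrogene Rpl37rt had more than 1 RefSeq accession in the table. None of these 11 genes held more than 12 counts in any library, and 6 of them were at 0 in all 4. Rps27a, which encodes a ribosomal protein fused to ubiquitin, had 0 counts in every library, which allows up to 0.716 and 0.720 CPM in LPS and 0.789 and 0.577 CPM in control for 3 counts per library (counting error only). Of the 72 genes with 1 accession, 69 were tested, and the others were Rpl26 with 0 counts throughout, Rps27rt with 0 counts throughout and Rps23rg1 with 2 and 2 counts in LPS and 3 and 8 counts in control. Over the whole table, 46.5% of genes with 1 accession and 11.7% of genes with several were tested. The values near 0 therefore stand for what was counted, not for the level of these mRNAs. The counting mode for reads shared by transcripts is not stated.

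**Figure D1:**
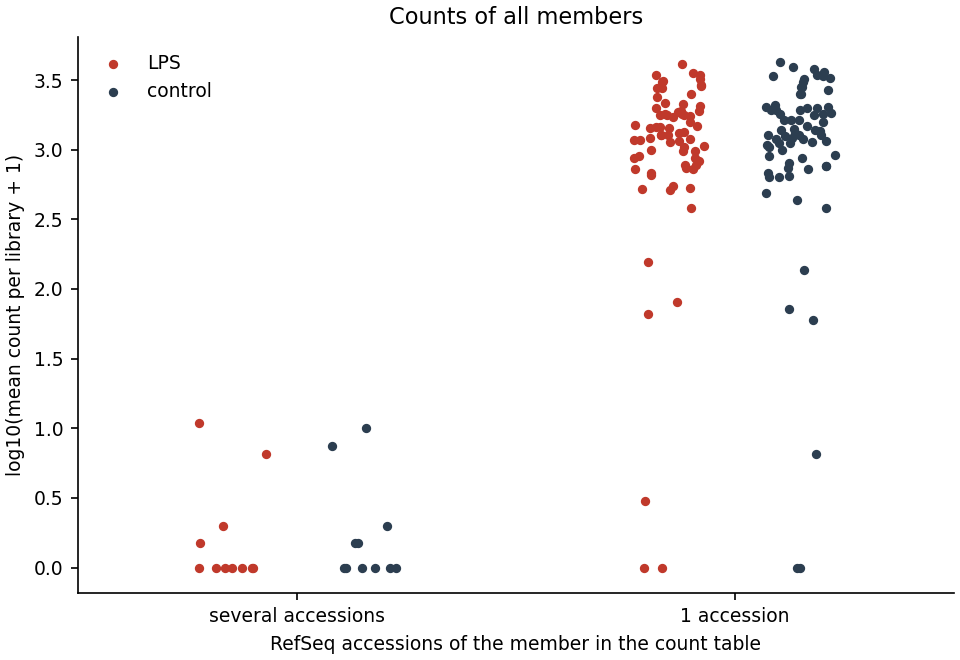
Counts of all 83 members by the number of RefSeq accessions in the count table, with LPS left of control; each point is the mean of 2 libraries of 1 group on the scale log10(mean count + 1). The 11 members with several accessions lie near 0, whereas 69 of the 72 members with 1 accession were tested.

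RefSeq also names 319 pseudogene copies for 63 of the 83 genes, of which 7 were genes of the table. How reads that match such copies were counted is not known, so the levels of individual genes are uncertain. The genes lie on 19 chromosomes, with 14 on chromosome 7. Spans of 13 tested genes overlap another counted gene not classed as a snoRNA, at least 5 of them on the same strand. The 13 include Rps3a1, whose overlapping gene Snord73b is named as a snoRNA but classed as an snRNA. No strand was found for Snord73b or for Dipk1a, which overlaps Rpl5.

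The TOP tract can be looked for at the annotated start sites. Promoter sequences from RefSeq (GRCm38.p6, the assembly that mm10 names) were found for 63 of the 83 genes, with 73 annotated starts. A pyrimidine tract, written as a C followed by at least 6 more C or T on the coding strand, lay between 30 bases before and 50 bases after the start in 53 of these 73 windows (72.6%), against 33.4% of 32851 promoters of all genes. The ETS motif CCGGAAG was found on either strand of the 300-base promoter in 34.2% of the members' windows and 8.86% of all, the YY1 motif AANATGGC in 23.3% and 6.05%, and the Sp1 motif GGGCGG in 60.3% and 35.7%. TATAAA was found in 9.59% and 13.6%, and a perfect NF-kB decamer in 0 of 73 windows and 0.155% of all. The windows below are those of a few genes picked by name, of which Rpl26 was not tested. They run 5′ to 3′ from 30 bases before the annotated start, with the pyrimidine tract in capitals, for Rps6 (chr4:86857318-86857397, minus strand), Rpl13a (chr7:45128696-45128775, minus), Rpl14 (chr9:120571487-120571566, plus), Rpl22l1 (chr3:28805478-28805557, plus), Rpl26 (chr11:68901536-68901615, plus), Rplp0 (chr5:115559437-115559516, plus), Rpl24 (chr16:55966245-55966324, plus) and Rpl7l1 (chr17:46782607-46782686, minus). The last 3 hold no such tract in this window. A match or its absence describes these letters only, since annotated starts can lie away from the true start.
Rps6: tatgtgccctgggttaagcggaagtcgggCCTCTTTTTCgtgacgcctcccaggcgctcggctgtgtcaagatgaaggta
Rpl13a: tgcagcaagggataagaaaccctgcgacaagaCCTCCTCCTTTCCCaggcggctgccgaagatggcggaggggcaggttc
Rpl14: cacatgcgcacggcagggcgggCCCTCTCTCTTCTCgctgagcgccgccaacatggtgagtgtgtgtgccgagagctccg
Rpl22l1: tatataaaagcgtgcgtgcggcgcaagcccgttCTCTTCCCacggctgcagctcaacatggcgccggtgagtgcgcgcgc
Rpl26: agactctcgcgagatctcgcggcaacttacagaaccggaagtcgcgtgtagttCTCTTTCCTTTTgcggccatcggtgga
Rplp0: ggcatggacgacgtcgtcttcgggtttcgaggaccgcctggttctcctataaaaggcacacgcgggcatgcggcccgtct
Rpl24: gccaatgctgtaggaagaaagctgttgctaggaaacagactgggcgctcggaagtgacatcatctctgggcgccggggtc
Rpl7l1: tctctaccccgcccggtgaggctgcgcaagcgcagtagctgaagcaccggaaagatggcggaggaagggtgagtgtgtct

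The tested genes were among the most abundant mRNAs of the microglia. Per length (CPM per kb of the longest matched GENCODE transcript), 67 of the 69 lay above the 90th percentile of 9428 tested genes with a length. Rps12, a protein of the small subunit, had 850 and 907 CPM per kb in LPS and 887 and 1120 CPM per kb in control. The acidic stalk protein gene Rplp1 had 853 and 849 CPM per kb in LPS and 832 and 793 CPM per kb in control. Rps6 averaged 845 CPM per kb in LPS and 801 CPM per kb in control, and the X-linked Rps4x averaged 756 in LPS and 842 in control. These 4 genes lay between percentiles 99.5 and 99.6, and their single libraries ran from 669 to 1120 CPM per kb. Their order differed between the groups. The lowest were Rps19bp1, with 22.6 CPM per kb in LPS and 18.9 CPM per kb in control, and Rps15a, with 3.03 and 2.49. The value of Rps15a rests on 59 and 72 counts in LPS and 47 and 70 counts in control over a matched transcript of 5179 nt. Rps20 was likewise matched to a long transcript (3706 nt), and its 68.2 CPM per kb in LPS and 61.1 in control are uncertain for that reason.

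None of the 69 tested genes was called in edgeR's quasi-likelihood test (0 higher and 0 lower at an adjusted p under 0.05). The same comparison called 8.34% of the 9548 genes tested (6.55% higher and 1.79% lower). A missing call with 2 libraries per group does not show that a gene was unchanged. The 95% interval of the change held 0 for 67 of the 69. At an unadjusted p under 0.05 there were 2 genes, against 21.3% of all genes. DESeq2 also called 0, and limma on unscaled log2 counts 0, whereas limma after quantile normalization called 0 higher (5.5% of all genes in that fit) and 12 lower (3.41%). The fitted log2 fold changes of LPS over control of the 67 members shown by name ran from -0.31 to 0.75, and 60 of all 69 lay between -0.25 and 0.25. The median of the 69 was 0.05, against -0.05 over all genes tested. For 63 genes the 95% interval of the change lay within 1 on the log2 scale in either direction, that is, inside a 2-fold change under this scaling. For 8 of them it lay within 0.5. Among the other 6, the intervals of Rpl22l1, Rpl24, Rpl28, Rpl7l1 and Rps14 reached past 1 in at least 1 direction.

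**Figure D2:**
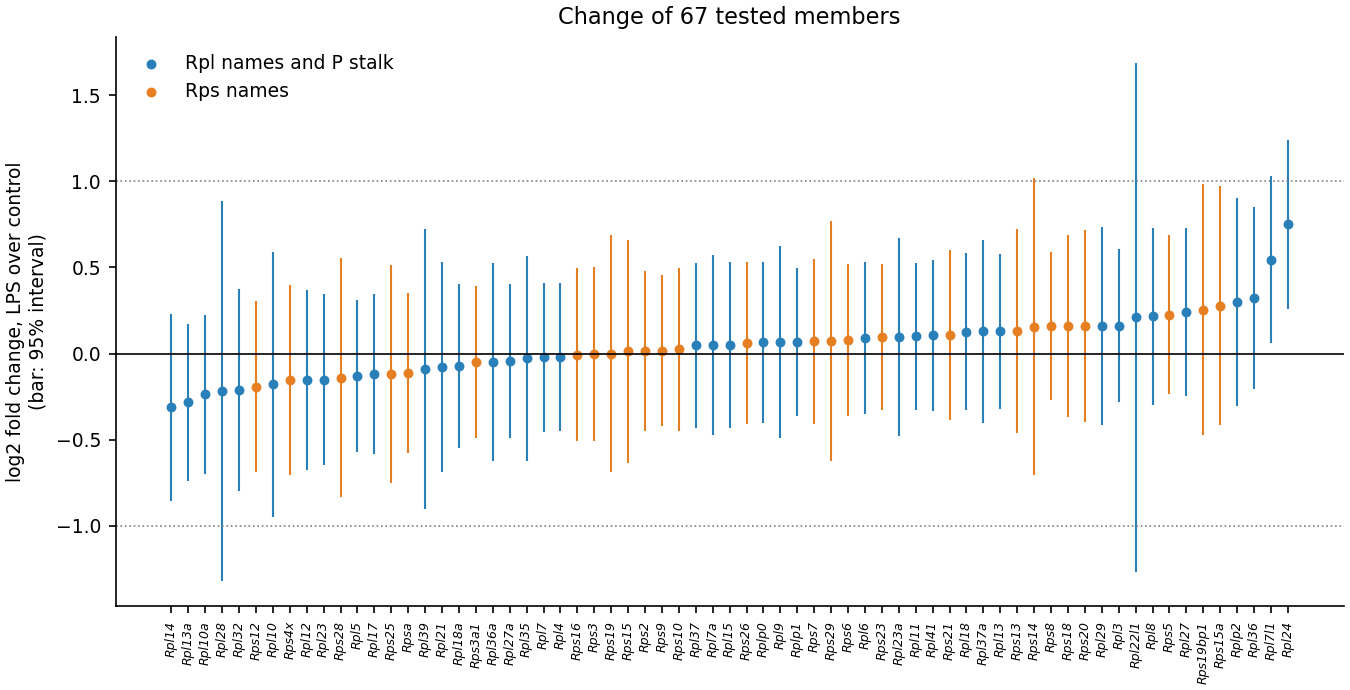
Fitted log2 fold changes of LPS over control (points) with 95% intervals (bars) for 67 of the 69 tested members, ordered by size; blue are Rpl names including the stalk proteins, orange are Rps names, and dotted lines mark 2-fold. The 62 intervals that stay between the dotted lines and the outlying Rpl7l1 and Rpl24 at the right are what to see.

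The 40 tested genes with Rpl names had a median log2 fold change of 0.05 (range -0.31 to 0.75), and the 29 with Rps names had a median of 0.06 (range -0.19 to 0.28 over those shown by name). Both LPS libraries lay above both control libraries for 15 of the 69 genes and below for 4, while 50 overlapped. Over all genes tested the groups did not overlap for 50.5%, with 24.7% above and 25.8% below. The 4 below were Rpl5, Rpl10a, Rpl13a and Rpl14, all of the large subunit. No difference between the subunits was tested.

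The stalk of the large subunit, which recruits elongation factors, is built from Rplp0, Rplp1 and Rplp2. Rplp0, a common reference gene, had 926 and 1033 CPM in LPS and 869 and 1002 CPM in control. The groups overlapped, and the log2 fold change was 0.07 ± 0.19 (SE; adjusted p = 0.90). Rplp1 had 426 and 424 CPM in LPS and 415 and 396 CPM in control, with all 4 libraries close together (0.07 ± 0.17, adjusted p = 0.89). Rplp2 had 338 and 239 CPM in LPS and 256 and 214 CPM in control. Its LPS libraries lay farther apart than its group means (0.30 ± 0.24, adjusted p = 0.58).

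Rpl5 and Rpl11 travel together in a small complex with an RNA of the large subunit and can bind the ubiquitin ligase Mdm2. With TMM their fitted changes had opposite signs, and both 95% intervals held 0. Rpl11 was negative like Rpl5 with upper-quartile scaling (-0.13), with total-count scaling (-0.33) and after quantile normalization (-0.54). Rpl5 had 656 and 727 CPM in LPS and 734 and 780 CPM in control, a separation narrower than the spread within either group (-0.13 ± 0.18, adjusted p = 0.77). Rpl11 had 436 and 427 CPM in LPS and 408 and 397 CPM in control, both LPS libraries slightly above (0.10 ± 0.17, adjusted p = 0.82). Rpl3, which lines the catalytic centre of the ribosome, had 861 and 786 CPM in LPS and 763 and 710 CPM in control (0.16 ± 0.18, adjusted p = 0.69). Rpl10, which joins the large subunit last, had 218 and 155 CPM in LPS and 261 and 161 CPM in control, with overlapping groups (-0.18 ± 0.31, adjusted p = 0.82).

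Among small-subunit proteins, Rps6 is the classical substrate of S6 kinase. It had 739 and 744 CPM in LPS and 664 and 743 CPM in control, with an adjusted p of 0.88 for 0.08 ± 0.18. Rps3, which sits where mRNA enters the ribosome and is also known as a binding partner of NF-kB, had 713 and 659 CPM in LPS and 770 and 604 CPM in control. Its groups overlapped (0.998-fold, SE 0.20 on the log2 scale, adjusted p = 1.00). Rps19, a gene mutated in the inherited anaemia named after Diamond and Blackfan, had 355 and 281 CPM in LPS and 387 and 249 CPM in control. The difference between its libraries within a group exceeded that between the groups (1.00-fold, SE 0.28 on the log2 scale, adjusted p = 1.00). Rpsa, first described as a laminin receptor, had 546 and 593 CPM in LPS and 567 and 664 CPM in control (-0.11 ± 0.19, adjusted p = 0.82).

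**Figure D3:**
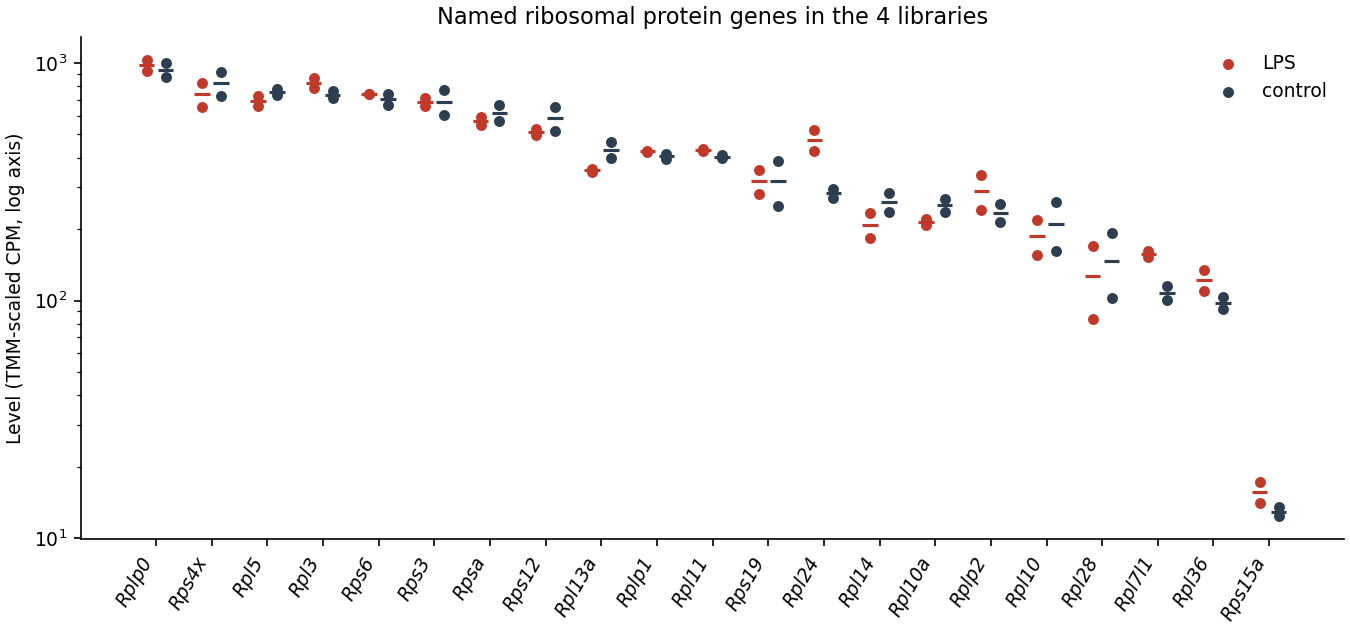
Levels of 21 named members that were tested, in TMM-scaled CPM on a log axis; points are single libraries (LPS red, left; control dark, right) and short lines are group means. Group means mostly lie close together, Rpl24 and Rpl7l1 have both LPS libraries clearly above control, and Rpl28 spreads widely within each group.

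The highest fitted value was that of Rpl24 (chromosome 16, 55966275 to 55971437), a large-subunit protein that forms a bridge to the small subunit. Rpl24 had 522 and 427 CPM in LPS and 295 and 270 CPM in control. Both LPS libraries lay above both controls, 1.68-fold on the fitted scale. The log2 fold change was 0.75 ± 0.20 (95% interval 0.26 to 1.24). The test did not call Rpl24 (unadjusted p = 0.010, adjusted p = 0.089). Over the alternatives other than a fit with the replicate number as a block, the adjusted p ran from 0.040 to 0.60. The fit with the block called Rpl24 higher (0.74, edgeR adjusted p = 4.4e-05), where 17.6% of all genes tested were called higher and 13.2% lower. The labels do not say that a replicate number marks a shared culture. Without a filter on low counts edgeR called Rpl24 as the 1 member higher and 0 lower (0.85, adjusted p = 0.040), where 3.91% of all genes were higher and 0.96% lower. As a share of the summed counts of the 69 genes, Rpl24 took 1.98% and 1.73% in LPS and 1.15% and 1.085% in control. This share scales each library to the group itself and uses the same counts, so it is no separate support. The annotated end of Rpl24 shares 1 base with the start of Zbtb11 on the same strand, and Zbtb11 had a log2 fold change of 0.22 (adjusted p = 0.67).

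Next was Rpl7l1 (chromosome 17, 46773907 to 46782656), a paralog of Rpl7. It had 162 and 152 CPM in LPS and 100 and 115 CPM in control, with no overlap. The log2 fold change was 0.55 ± 0.19 (95% interval 0.06 to 1.03, unadjusted p = 0.033, adjusted p = 0.19). The fit with the replicate number as a block called Rpl7l1 higher (0.55, edgeR adjusted p = 0.0024). Its share of the summed counts was 0.613% and 0.616% in LPS and 0.392% and 0.460% in control. Rpl24 and Rpl7l1 were the 2 members with a positive fitted change in each of 16 fits of the table. These fits use the same libraries, so the constant sign is no separate support. Rpl7 itself had a fitted log2 change of -0.02. The next in order were Rpl36, Rplp2, whose values are given above, and Rps15a. Rpl36 had 134 and 110 CPM in LPS and 104 and 91.7 CPM in control (0.32 ± 0.21, adjusted p = 0.48). Rps15a had 14.1 and 17.3 CPM in LPS and 12.4 and 13.5 CPM in control (0.28 ± 0.28, adjusted p = 0.66).

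At the lower end, Rpl13a is known from human monocytes as part of a complex that silences inflammatory mRNAs after interferon-gamma. Rpl13a had 357 and 349 CPM in LPS and 463 and 396 CPM in control. Both LPS libraries lay below both controls, and the difference was not called (-0.28 ± 0.18, adjusted p = 0.47). The large-subunit gene Rpl14 had 234 and 184 CPM in LPS and 282 and 236 CPM in control, again without overlap (-0.31 ± 0.22, adjusted p = 0.50). Rpl10a, a protein of the large subunit's mobile stalk near the exit site, had 220 and 207 CPM in LPS and 268 and 236 CPM in control (-0.24 ± 0.19, adjusted p = 0.56). Rpl13a, Rpl14 and Rpl10a were among 8 genes, with Rpl17, Rpl23, Rpl5, Rps12 and Rpsa, whose fitted change was negative in each of the 16 fits. All 16 fits use the same 4 libraries. Most members turned negative with total-count scaling (67 of 69), after quantile normalization (64) and with upper-quartile scaling (62), so the constant sign is no separate support. As a share of the summed counts, Rpl13a took 1.35% and 1.41% in LPS and 1.81% and 1.59% in control, and Rpl14 took 0.883% and 0.746% in LPS and 1.10% and 0.9475% in control. In total 12 genes had both LPS shares above both control shares and 3 had them below. This share was not computed over all genes, so these counts are no result about the members. By CPM, 24.7% of all genes tested lay above both controls and 25.8% below.

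Rpl28, a protein of the large subunit, also had a low fitted value but varied widely within the groups. Rpl28 had 169 and 83.7 CPM in LPS and 192 and 103 CPM in control (-0.22 ± 0.44, adjusted p = 0.85). The library numbered 2 was low in each group, and the groups overlapped. Rpl22l1, the paralog of Rpl22, had 51.1 and 23.7 CPM in LPS and 48.4 and 16.7 CPM in control, the widest such gap. Rpl22l1, Rps14 and Rps15 were chosen after their values were seen. Rps14 had 505 and 337 CPM in LPS and 483 and 273 CPM in control.

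Differences between the replicate numbers were seen in both groups for most of these genes. The log2 ratio of replicate 2 over replicate 1 spread across the 69 genes with an SD of 0.29 in LPS and 0.41 in control. The fitted change with LPS spread with an SD of 0.19. These measures are unlike, since each ratio compares 2 single libraries and the fitted change compares 2 groups of 2 libraries. The ratio ran from -1.11 to 0.29 in LPS and from -1.53 to 0.63 in control, and 58 of 69 genes had the same sign in both groups. Across the 69 genes the 2 ratios had a Pearson correlation of 0.85. That value is a description, since all genes come from the same 4 libraries. Rps15 had the highest ratio in control but not in LPS, with 270 and 301 CPM in LPS and 222 and 343 CPM in control. In both groups replicate 2 also had more of the summed astrocyte markers given above (439 against 127 CPM in LPS, 308 against 111 CPM in control) and less of the oligodendrocyte markers (54.2 against 203 CPM in LPS, 62.3 against 218 CPM in control). Their part in the ribosomal protein values was not tested. In bulk samples fewer cells of a type and less RNA per cell cannot be told apart.

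**Figure D4:**
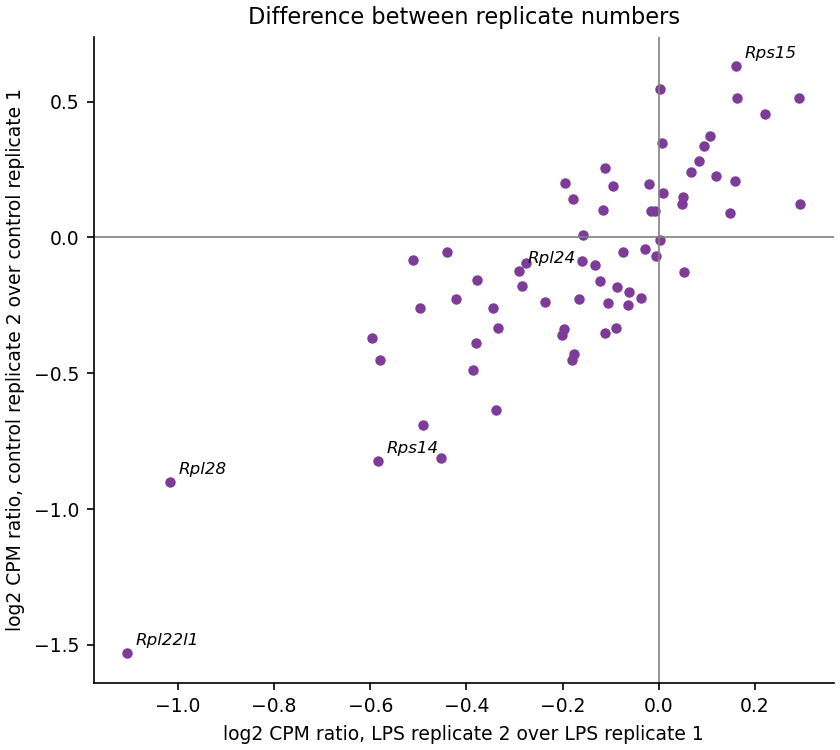
Log2 CPM ratio of replicate 2 over replicate 1 in LPS (horizontal axis) and in control (vertical axis), with 1 point for each of 67 of the 69 tested members. The points run along the diagonal from Rpl22l1 and Rpl28 at the lower left to the upper right, where Rps15 has the highest ratio in control, and Rpl24 lies near the middle.

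The level of the group as a whole depended on how libraries were scaled. The 83 genes held 2.17% and 2.24% of all counts in LPS and 2.70% and 3.17% in control. With the most abundant unnamed accession and Lars2 left out of the totals, the shares were 3.12% and 3.22% in LPS and 4.33% and 4.45% in control. Over the same libraries, the genes called higher in LPS held 22.6% and 21.1% of counts in LPS and 3.82% and 4.36% in control. The median log2 fold change of the 69 genes was 0.05 with TMM and 0.07 with DESeq2, but -0.18 with upper-quartile scaling, -0.38 with total-count scaling and -0.58 after quantile normalization. The median of all genes tested was -0.05, -0.03, -0.28, -0.48 and -0.14 in the same 5 settings. Relative to all genes, the group's median was higher by 0.09 to 0.10 in the first 4 of these, and lower by 0.44 after quantile normalization. That setting called Rpl3, Rpl4, Rpl5, Rpl6, Rpl7, Rpl10a, Rpl13a, Rpl14, Rplp0, Rps2, Rps3 and Rps4x lower, with values from -1.05 for Rps4x to -0.67 for Rpl3 (limma adjusted p from 0.015 to 0.045). Rpl24 had 0.52, 0.32 and 0.17 with upper-quartile, total-count and quantile scaling. The position of the group also depended on the filter on low counts. With TMM, the member median minus the all-gene median was 0.34 without a filter and -0.02 with a mean count of at least 50.

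**Figure D5:**
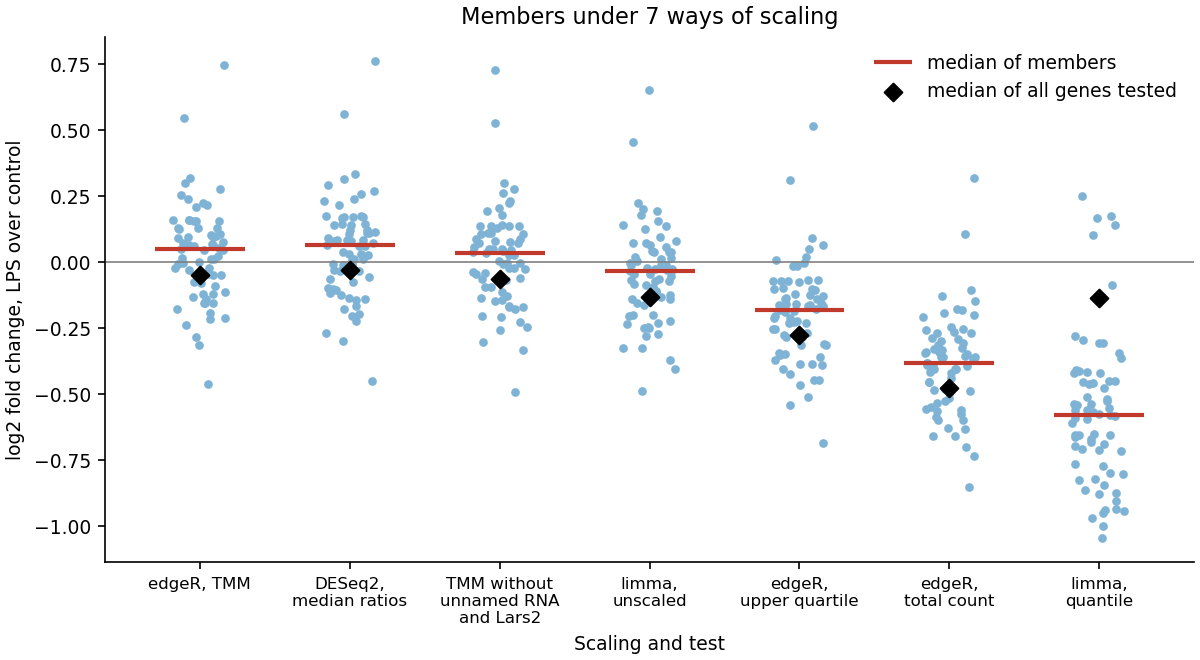
Log2 fold changes of LPS over control of the 69 tested members (points) under 7 combinations of scaling and test, with the members' median as a red line and the median of all genes tested as a black diamond. The member median moves from 0.07 with DESeq2 to -0.58 after quantile normalization. Of the 7 combinations shown, that is the one in which it lies below the median of all genes.

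Genes around the ribosome were taken from lists chosen for their roles. For comparison, edgeR called 8.34% of all genes tested, and 21.3% had an unadjusted p under 0.05. Over all genes, DESeq2 called 741 higher and 227 lower, and limma after quantile normalization called 3.41% lower. The TOP list held RNAs taken to carry a TOP tract that are not ribosomal protein genes by name, among them the non-coding Snhg1 and Gas5. The tract was not looked for in them gene by gene. Of the 22 tested, 0 were called and 2 had an unadjusted p under 0.05. Their median log2 fold change was 0.08, against -0.05 over all genes. DESeq2 called 0 of them, and limma after quantile normalization called 4 lower. Many of these mRNAs, among them Eef1a1, Eef2 and Eif4b, are also in the list of translation factors below, so the 2 lists are not separate. Eef1a1, the elongation factor that delivers tRNAs, had 2525 and 2092 CPM in LPS and 2628 and 2277 CPM in control (-0.09 ± 0.20, adjusted p = 0.87). Rack1, a scaffold protein of the small subunit, had 653 and 704 CPM in LPS and 569 and 632 CPM in control (0.18 ± 0.18, adjusted p = 0.67). Of 32 translation initiation and elongation factors 0 were called, with 5 at an unadjusted p under 0.05 and a median of 0.20, and 4 were called lower by limma after quantile normalization and 0 by DESeq2. Of 11 genes of the RNA polymerase I machinery, which transcribes ribosomal RNA, 0 were called, 0 also at an unadjusted p under 0.05 and by DESeq2, with a median of 0.26.

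Among 32 tested ribosome biogenesis factors, 2 rose and 0 fell, 7 had an unadjusted p under 0.05, and the median was 0.26. These counts are near the shares over all genes (6.55% called higher, 21.3% at an unadjusted p under 0.05) and are no result about the list. DESeq2 called 3 of the 32 factors higher and 0 lower, where it called 741 genes higher and 227 lower over all genes. After quantile normalization limma called 2 higher and 0 lower. Eif6, which keeps the subunits apart until the large one is mature, had 104 and 95.7 CPM in LPS and 35.0 and 28.5 CPM in control. It was 3.15-fold higher (1.65 ± 0.22, adjusted p = 0.011), and edgeR no longer called it when LPS replicate 1 was left out (1.60, adjusted p = 0.075) or when LPS replicate 2 was (1.71, adjusted p = 0.055). Sbds, the protein that helps release Eif6 and is mutated in Shwachman-Diamond syndrome, had 162 and 133 CPM in LPS and 53.1 and 51.5 CPM in control. It was 2.82-fold higher (1.496 ± 0.21, adjusted p = 0.013), and leaving out LPS replicate 1 ended the call (1.36, adjusted p = 0.093). Over all alternatives the adjusted p reached at most 0.075 for Eif6 and 0.093 for Sbds. Both LPS libraries lay above both controls for Eif6 and for Sbds.

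Of 13 tested regulators of ribosomal protein translation, 1 rose and 0 fell, where 6.55% of all genes were called higher, so that this count too is near the background. An unadjusted p under 0.05 was found for 4 of them against 21.3% of all genes, and the median was 0.21. The 1 was Eif2ak2, the interferon-induced kinase PKR that halts initiation on double-stranded RNA, with 143 and 132 CPM in LPS and 14.7 and 19.8 CPM in control (2.99 ± 0.25, 7.93-fold, adjusted p = 0.0024). DESeq2 called 2 of the 13 regulators higher and 0 lower, where it called 741 genes higher and 227 lower over all genes. After quantile normalization limma called 1 higher and 0 lower. Larp1, chosen after its values were seen, had 593 and 269 CPM in LPS and 194 and 74.0 CPM in control. Both LPS libraries were above both controls, but the libraries within a group differed widely, and Larp1 was not called (1.69 ± 0.57, adjusted p = 0.17). Mtor had 17.4 and 18.2 CPM in LPS and 15.5 and 14.6 CPM in control (0.24 ± 0.25, adjusted p = 0.68). The S6 kinase gene Rps6kb1 had 48.9 and 46.5 CPM in LPS and 46.5 and 42.1 CPM in control (0.11 ± 0.21, adjusted p = 0.84). Myc had 0 counts in all libraries over 4 accessions and was not tested. Among names dropped by the rule, Rps27l and Rpl36al, paralogs of Rps27 and Rpl36a, had log2 fold changes of -0.05 ± 0.19 and 0.12 ± 0.23 without a call (adjusted p = 0.93 and 0.84). The kinase gene Rps6ka2, chosen after its values were seen, had 65.7 and 46.8 CPM in LPS and 12.4 and 14.04 CPM in control (2.09 ± 0.28, adjusted p = 0.011). Rps6ka2 was not called once LPS replicate 1 was left out (1.83, adjusted p = 0.066, the highest over the alternatives).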

How the data were processed

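RNA sequencing counts of 4 libraries came in 1 table that the authors deposited, with 32915 RefSeq accessions. Its name calls it normalized. The values are whole and the totals differ, which does not exclude a rescaling, and they were treated as counts. Per the submitters' processing notes, HTSeq 0.6.1, TopHat2 2.0.10, Cufflinks 2.2.1, Trimmomatic 0.33 and CASAVA 1.8.2 were used with build mm10. Roles, counting mode and strand setting are not stated there. Libraries were grouped by the labels' titles.

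Accessions were matched to symbols with a RefSeq table of GRCm38.p6 (32487) and GENCODE metadata (187); 241 kept their accession. Counts were summed per gene. The 9548 genes whose counts averaged 10 or more were tested with edgeR 4.0.16 (R 4.3.3): TMM scaling (factors 0.822 and 0.908 for LPS, 1.05 and 1.27 for control), quasi-likelihood test, two-sided, Benjamini-Hochberg adjustment over all genes, called under 0.05. The SE is the log2 fold change divided by the square root of F. DESeq2 1.42.0 and limma 3.58.1 were alternatives, with other scalings, filters, row summing and left-out libraries. The fit was checked on simulated data. Named genes were the 5 highest and 5 lowest by log2 fold change, the 5 highest per length, 13 with fixed roles, called genes, and others marked in the text. Members and lists were chosen with earlier results of these data known. The values of some named genes are not reported here.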

Additional observations from a re-analysis of the deposited data

How the results depend on the processing

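Across 16 alternatives, 0 members were called higher or lower except in 3: limma after quantile normalization called 12 lower, the fit without a filter on low counts called 1 higher, and the fit with the replicate number as a block called 2 higher and 2 lower. The members' median moved to -0.38 with total-count scaling, -0.18 with upper-quartile scaling and -0.58 after quantile normalization. The median of all genes moved to -0.48 with total-count scaling, -0.28 with upper-quartile scaling and -0.18 without a filter. Rplp0 and Rpl3, with positive fitted values under TMM, were called lower after quantile normalization (-0.91 and -0.67). Leaving out 1 library gave member medians from -0.02 to 0.11, all-gene medians from -0.06 to -0.03, and 0 members called in each case. All-gene calls then ran from 339 to 660 higher and from 33 (without LPS replicate 1, and also without LPS replicate 2) to 241 lower, against 625 and 171 with all 4; 339 higher was without LPS replicate 1. Lower calls numbered 483 with total-count scaling (471 higher), 320 with upper-quartile scaling and 326 after quantile normalization. Higher genes made up 78.5% of calls with TMM, 62.7% with upper-quartile scaling, 49.4% with total-count scaling and 61.7% after quantile normalization.

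The block gave 1677 higher and 1258 lower genes (17.6% and 13.2%), and called Rpl24 (0.74, adjusted p = 4.4e-05) and Rpl7l1 (0.55, 0.0024) higher and 2 members lower, among them Rpl14 (-0.32, 0.048). In the lists it called 9 biogenesis factors higher and 1 lower, 9 translation factors higher and 2 lower, and 3 regulators higher and 2 lower. It also called 1 gene of the TOP list higher and 2 lower, and 1 RNA polymerase I gene higher and 1 lower. Same-numbered libraries deviated together (correlation 0.67 over genes), but the labels do not say that a number marks a shared culture.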
